A study of Mus musculus with 6 samples.

Results

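The genes described here encode the proteins of the cytosolic and of the mitochondrial ribosome. They were chosen by name from the array: every non-control probe whose gene name begins with Rpl, Rps, Mrpl or Mrps followed by a number was taken, and the Rps6k kinases were left out. The rule found 258 probes of 41174, which stand for 154 of the 19598 genes tested, 79 of them named as cytosolic and 75 as mitochondrial. Of these probes, 249 passed the filter on dim signal and 9 did not, 6 of the 9 being mitochondrial, and each of the 154 genes kept at least 1 probe. The names group the genes into 43 of the cytosolic large subunit, 30 of the cytosolic small subunit, 5 paralogs of cytosolic genes, 46 of the mitochondrial large subunit and 29 of the mitochondrial small subunit. The last cytosolic name, Rps19bp1, belongs to a protein that binds Rps19 and is no ribosomal protein.

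Each of 3 CD-1 mice, numbered 495, 485 and 512, gave a ligated and a contralateral kidney. The ligated left kidney lay behind a completely tied ureter, and the contralateral right kidney of the same animal was not tied. CD-1 mice are outbred and differ in their genes from animal to animal. The submitters labelled the material as kidney tissue and also as primary cells, and the time since ligation and the age of the mice are not given in the sources used here. The 6 samples were measured on 6 single-colour Agilent arrays, so each group has n = 3. Tying 1 ureter is used to study fibrosis of the kidney. The right kidney takes over the work of the tied one, and it is a control from an operated animal rather than from an untouched one.

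The cytosolic ribosome translates the messenger RNAs of the nucleus, and its protein genes are among the most strongly expressed in every cell. The mitochondrial ribosome translates only the few messenger RNAs of the mitochondrial genome, which encode core subunits of the respiratory chain and ATP synthase, while all of its own proteins are encoded in the nucleus and imported. Tubule cells of the kidney, above all those of the proximal tubule, are rich in mitochondria. The messenger RNAs of cytosolic ribosomal proteins start with a run of pyrimidines, the 5′ terminal oligopyrimidine tract, through which mTOR signalling controls their translation.

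The start sites of a few members are shown to give examples of the motifs counted next. The pyrimidine run and CCGGAAG occur in both kinds of gene: the mitochondrial Mrpl12 holds a run and the cytosolic Rps27l holds CCGGAAG. Each sequence runs 5′ to 3′ from 80 bases before to 20 bases after the RefSeq start of the gene in GRCm38.p6, and the capitals mark matches to the motifs searched. Mrpl12 (chr11:120484557-120484656, plus strand), Mrps18a (chr17:46110924-46111023, plus strand) and Mrps26 (chr2:130563677-130563776, plus strand) are mitochondrial. Rps6 (chr4:86857348-86857447, minus strand), Rpl13a (chr7:45128726-45128825, minus strand), Rps27l (chr9:66946006-66946105, plus strand) and Rps27 (chr3:90213629-90213728, minus strand) are cytosolic.
Rps6: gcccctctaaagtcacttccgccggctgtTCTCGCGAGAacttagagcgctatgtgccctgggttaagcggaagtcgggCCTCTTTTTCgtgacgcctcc
Rpl13a: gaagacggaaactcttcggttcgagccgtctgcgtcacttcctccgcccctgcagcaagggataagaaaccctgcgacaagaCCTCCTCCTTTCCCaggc
Rps27l: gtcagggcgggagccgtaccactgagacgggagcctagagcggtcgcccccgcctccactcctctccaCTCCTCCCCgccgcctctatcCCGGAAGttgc
Rps27: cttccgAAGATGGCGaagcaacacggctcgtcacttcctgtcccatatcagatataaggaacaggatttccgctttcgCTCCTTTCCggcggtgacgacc
Mrpl12: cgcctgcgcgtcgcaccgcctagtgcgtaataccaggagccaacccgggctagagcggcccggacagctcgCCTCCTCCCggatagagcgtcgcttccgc
Mrps18a: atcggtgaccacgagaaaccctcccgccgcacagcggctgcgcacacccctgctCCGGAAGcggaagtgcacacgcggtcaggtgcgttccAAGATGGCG
Mrps26: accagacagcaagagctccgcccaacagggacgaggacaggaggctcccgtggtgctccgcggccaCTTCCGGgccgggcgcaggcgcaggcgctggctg

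RefSeq promoters, from 250 bases before to 50 bases after the start, were at hand for 126 of the 154 genes, as 72 promoters of 60 cytosolic genes and 72 promoters of 66 mitochondrial genes. A run of at least 8 pyrimidines that begins with C, on the sense strand within 20 bases either side of the start, was found in 41.7% of the cytosolic and 15.3% of the mitochondrial promoters, against 12.6% of all 32851 promoters. The 7-letter core CCGGAAG of the ETS family, to which the mitochondrial regulator Gabpa belongs, was found on either strand in 33.3% of the cytosolic and 33.3% of the mitochondrial promoters, against 8.86% of all. The NRF1 core GCATGCGC, also searched on both strands, was found in 4.17% of the cytosolic and 11.1% of the mitochondrial promoters, against 2.71% of all. AAGATGGCG, a motif of the factor YY1, stood in 8.33% of the cytosolic and 9.72% of the mitochondrial promoters and in 1.4% of all. TCTCGCGA, which lies on both strands of the Rps6 start site shown, stood in 16.7% of the cytosolic promoters, in 0 of 72 mitochondrial ones and in 0.995% of all. TATAAA was found in 8.33% of the cytosolic, 6.94% of the mitochondrial and 13.6% of all promoters. These letters were searched on both strands. CCGGAAG and AAGATGGCG share the letters AAG and can overlap there, and all matches describe the windows without showing that a factor binds there. Among the mitochondrial genes, CCGGAAG stood in 32.1% of 56 promoters of genes that passed the test below and in 37.5% of 16 promoters of genes that did not. The same split was 17.9% and 6.25% for the pyrimidine run, 12.5% and 6.25% for GCATGCGC, 10.7% and 6.25% for AAGATGGCG and 7.14% and 6.25% for TATAAA, where 6.25% is 1 promoter, and these shares were not tested.

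Signals are given as multiples of the array's 75th percentile, which removes differences in overall brightness between arrays. That percentile was 1362, 1432 and 1068 units in the ligated kidneys of mice 495, 485 and 512, against 740, 671 and 1106 units in their contralateral kidneys, and between 71.6% and 74.2% of probes lay above background on ligated arrays, against 65.3% to 69.0% on contralateral arrays. The number of arrays limits the precision. Changes are log2 differences of ligated minus contralateral kidneys from limma with the mouse as a block, and a gene was called at a Benjamini-Hochberg adjusted p under 0.05 over 19598 genes. By that rule 2884 genes, or 14.7%, fell and 3135 genes, or 16.0%, rose, and the median over all genes was -0.01. The calls depend on the scaling of the arrays: 5938 of 8499 calls were falls when arrays were centred on their median, 2888 of 5470 after quantile normalization, 2778 of 4767 after normexp background correction and 665 of 2994 when arrays were centred on spike-in spots. These scalings put the median of all genes at -0.32, -0.02, -0.18 and 0.29.

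The contralateral kidney of mouse 512 stood apart from the other contralateral kidneys. Against their mean, its proximal tubule markers had a median log2 difference of -2.03, its macrophage markers one of 1.78, its fibroblast markers one of 1.74 and its cell cycle genes one of 3.07. Mouse 512 alone lay on slide 2, while both kidneys of mice 495 and 485 lay on slide 1. Results are therefore also given without mouse 512, which is the comparison within slide 1.

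Of the 79 genes named as cytosolic, 1 fell and 0 rose, while 57 of the 75 mitochondrial genes, or 76.0%, fell and 0 rose. Against 14.7% of all genes that fell, the cytosolic share was 1.27%. The median log2 change was -0.07 for cytosolic genes and -0.91 for mitochondrial genes, the second being a 1.88-fold lower signal. At an unadjusted p under 0.05, limma counted 3 cytosolic genes lower and 1 higher, and 68 mitochondrial genes lower and 0 higher. Over all 19598 genes it counted 5051 lower and 4782 higher at that level. In these bulk samples, fewer cells of a type and less RNA per cell cannot be told apart. Without mouse 512, 7 cytosolic and 67 mitochondrial genes fell, at medians of -0.11 and -1.05. Those are 8.86% and 89.3% of the classes, in a fit in which 28.9% of all genes fell. With only the contralateral kidney of mouse 512 left out and no mouse in the model, 7 cytosolic genes fell, 4 rose, and 69 mitochondrial genes fell, where 5876 of all 19598 genes fell. Without mouse 495 or without mouse 485, limma called 0 genes of the whole array, while 30 and 37 mitochondrial genes were lower at an unadjusted p under 0.05. In these fits 4949 and 4952 of all 19598 genes passed that level in either direction.

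**Figure D1:**
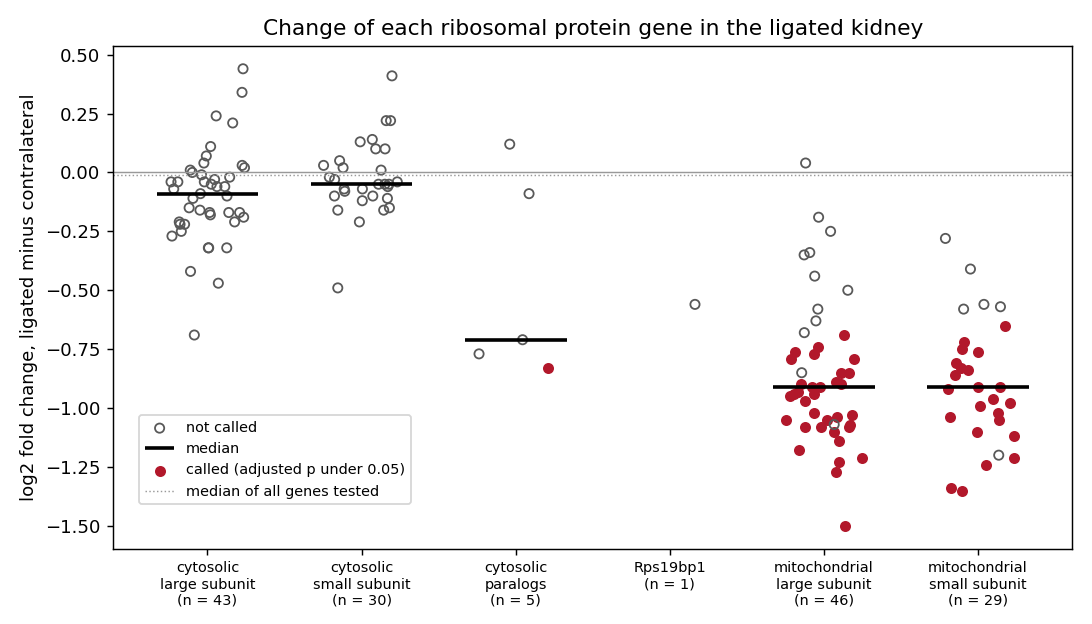
Log2 fold change of every ribosomal protein gene, ligated minus contralateral (vertical axis), by subunit as named (horizontal axis). Each point is 1 gene, filled where its adjusted p was under 0.05, and bars are medians. The mitochondrial genes centre on -0.91 in both subunits and the cytosolic subunits on -0.09 and -0.05.

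The gap between the 2 ribosomes was present within each mouse. For mice 495, 485 and 512, the cytosolic medians were 0.01, -0.20 and -0.02 and the mitochondrial medians -0.96, -1.14 and -0.58. The cytosolic median thus exceeded the mitochondrial one by 0.98, 0.94 and 0.56 on the log2 scale. This is a difference between medians of 2 groups of genes on the same arrays, so a scaling that adds 1 constant to an array leaves it as it is. Quantile normalization, which is no such scaling, gave 1.25, 1.33 and 0.55. No p is given for it, since 3 pairs cannot go below an exact two-sided p of 0.25.

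The size of each ribosome's own change depended on the scaling, and for the cytosolic genes the direction did too. The mitochondrial median stayed below 0 in all 3 mice under every scaling tried, at -1.21 with median centring, -0.58 with quantile normalization, -0.86 with normexp correction and -0.60 with spike-in centring. With spike-in centring, however, 0 mitochondrial genes passed the adjusted threshold and 10 were lower at an unadjusted p under 0.05. In that fit 3.39% of all 19598 genes fell, and 5869 passed the unadjusted level of limma in either direction. The cytosolic median was -0.37 with median centring and -0.04 with normexp correction, but 0.47 with quantile normalization and 0.24 with spike-in centring. With spike-in centring the mice differed in sign, with cytosolic medians of 0.6, 0.56 and -0.44 in mice 495, 485 and 512.

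**Figure D2:**
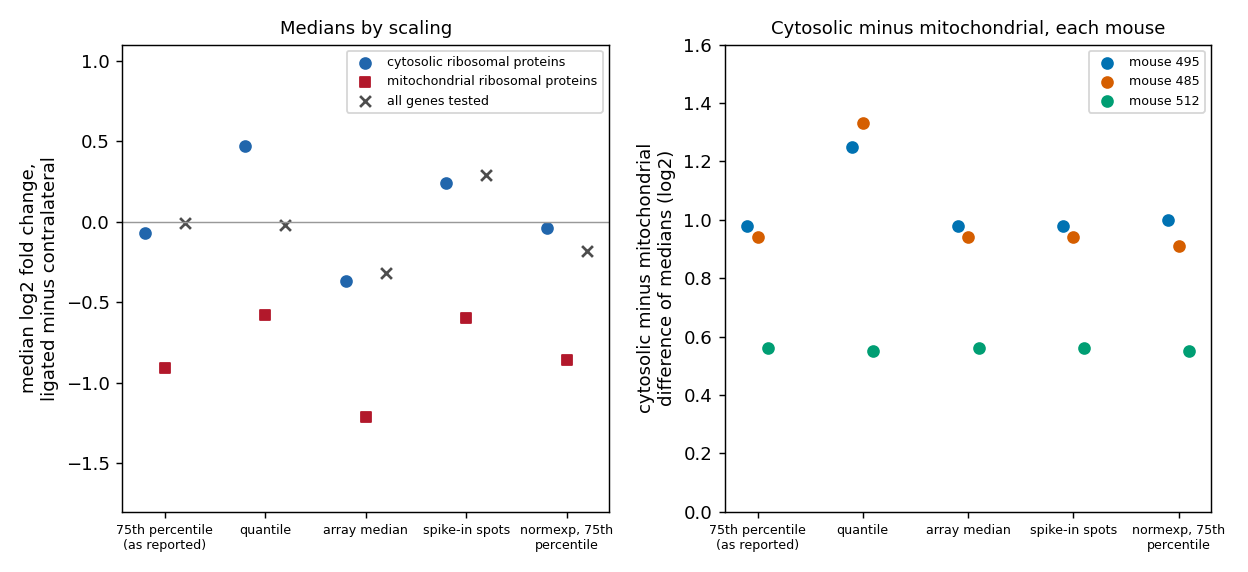
Left, the median log2 fold change (vertical axis) of cytosolic genes, mitochondrial genes and all genes tested under 5 scalings (horizontal axis). Right, the cytosolic minus mitochondrial difference of medians in each mouse under the same scalings. The cytosolic median changes sign between scalings, and the difference within a mouse lies between 0.55 and 1.33.

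Falls of the mitochondrial genes were spread over both subunits. Of the 46 large subunit genes, 34 fell, with a median log2 change of -0.91. Of the 29 small subunit genes, 23 fell, also with a median of -0.91. Mrps18a, at -1.12 ± 0.18, and Mrps30, at -0.76 ± 0.14 (SE), are counted with the small subunit by name, although structures of the human mitochondrial ribosome place both in the large one. The quartiles of the mitochondrial genes were -1.06 and -0.74, and the whole range was -1.5 to 0.04. The ligated kidneys lay below all contralateral kidneys in 71 of the 75 genes, against 28.8% of all genes, and the exceptions were Mrpl23, Mrpl33, Mrpl40 and Mrpl52. The called genes had adjusted p-values between 0.0251 and 0.0485, so all sat near the threshold, and the smallest adjusted p of any gene on the array was 0.0221.

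Mrpl12 had the largest fall. Its protein forms, with that of Mrpl10, part of the stalk on which translation factors land, and the human protein has also been found to bind the mitochondrial RNA polymerase. Its probe lies on chr11:120304516-120304575 of mm8 and starts with ctggagtgaggcatggttatgaggacttac, the first 30 of its 60 bases. Mrpl12 had signals of 13.8, 15.4 and 13.7 in the ligated kidneys of mice 495, 485 and 512, against 47.6, 58.1 and 23.8 in their contralateral kidneys. The ligated kidneys were close to one another and all below the contralateral ones, among which mouse 512 was lowest. The log2 change was -1.5 ± 0.28 (SE, n = 3 pairs; limma adjusted p = 0.0336), or 2.83-fold lower. Mrpl10 had 2.04, 2.09 and 2.14 in ligated kidneys, against 5.62, 6.69 and 3.41 in contralateral kidneys, a change of -1.27 ± 0.25 (limma adjusted p = 0.0363). Mrpl10 showed the same order of kidneys as Mrpl12, with no overlap between groups.

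Mrps7, whose bacterial counterpart starts the assembly of the small subunit's head, had 3.32, 3.60 and 3.18 in ligated kidneys, against 9.69, 12 and 5.41 in contralateral kidneys. Its change was -1.35 ± 0.25 (limma adjusted p = 0.0332), and the groups did not overlap. Mrps21, another small subunit protein, had 3.02, 2.73 and 2.82 in ligated kidneys, against 8.27, 8.64 and 4.25 in contralateral kidneys, a change of -1.24 ± 0.27 (limma adjusted p = 0.0401). Mrps36 had 4.33, 4.26 and 3.73 in ligated kidneys, against 12.7, 13.7 and 6.35 in contralateral kidneys. It fell by 1.34 on the log2 scale (SE 0.24; limma adjusted p = 0.0327), and despite its name its protein is now known as a subunit of the oxoglutarate dehydrogenase complex of the citric acid cycle. Mrpl46, of the large subunit, had 1.63, 1.44 and 1.89 in ligated kidneys, against 4.21, 4.13 and 3.32 in contralateral kidneys, a change of -1.23 ± 0.20 (limma adjusted p = 0.0302). For Mrpl46 the contralateral kidney of mouse 512 lay closer to the other contralateral kidneys than it did for Mrpl12.

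Mrps12, which sits at the decoding centre, had 8.29, 7.43 and 8.22 in ligated kidneys, against 14.7, 17.3 and 11.8 in contralateral kidneys. The groups did not overlap, and the change of -0.86 ± 0.20 (limma adjusted p = 0.0441) lay near the middle of the mitochondrial genes.

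**Figure D3:**
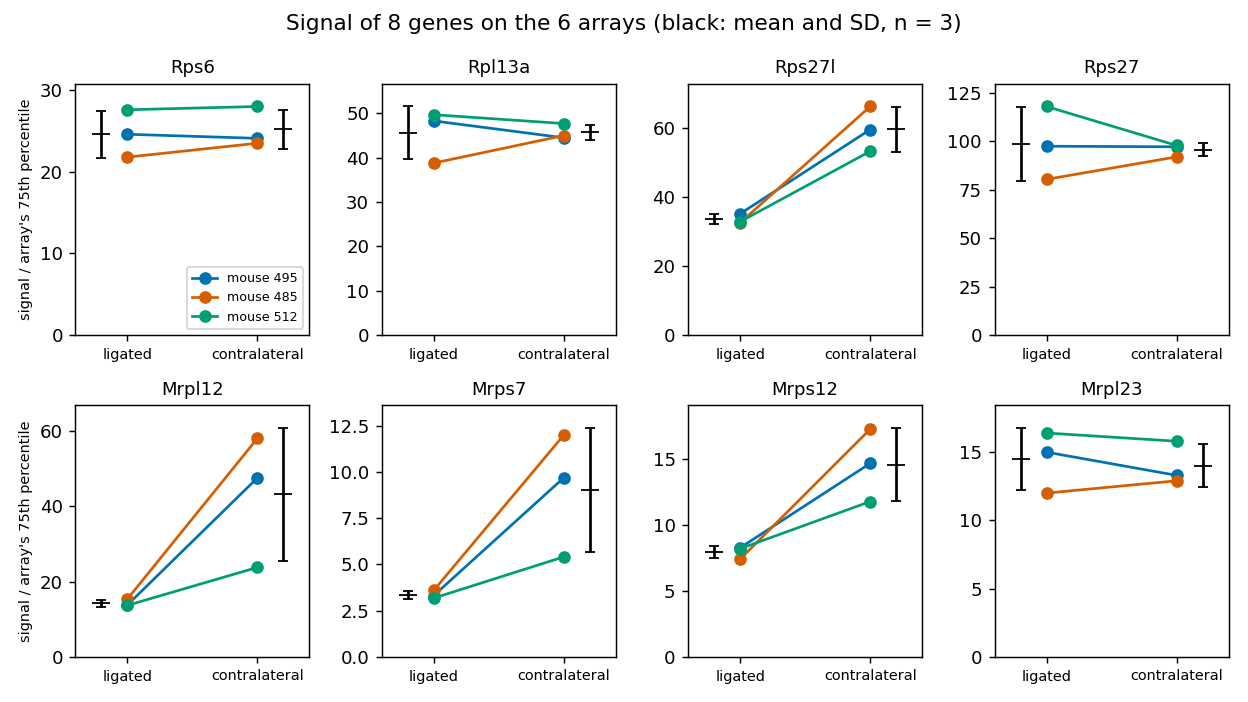
Signal relative to the array's 75th percentile (vertical axis, from 0) of 4 cytosolic genes (top) and 4 mitochondrial genes (bottom) on all 6 arrays. Lines join the ligated and the contralateral kidney of a mouse, and black marks are means with SD (n = 3). Rps27l, Mrpl12, Mrps7 and Mrps12 are lower in each ligated kidney, and the other genes overlap between groups.

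The 18 mitochondrial genes that were not called were not alike. Mrpl13, Mrpl28, Mrps18c and Mrps34 had adjusted p-values of 0.0502, 0.0503, 0.0514 and 0.0529, just past the threshold. Mrps34, with 8.85, 7.38 and 8.99 in ligated kidneys against 24.3, 24.4 and 12.1 in contralateral kidneys, had one of the larger changes at -1.20 ± 0.31 (SE), and its groups did not overlap. Mrpl23 and Mrpl33 had the smallest changes of the class. Mrpl23, the counterpart of a bacterial protein at the mouth of the exit tunnel, had 15, 12 and 16.4 in ligated kidneys, against 13.3, 12.9 and 15.8 in contralateral kidneys. Its change of 0.04 ± 0.15 had a 95% interval of -0.36 to 0.44, which lies above the median of its class. Mrpl33 had 35.1, 28.6 and 32.4 in ligated kidneys, against 27.9, 36.1 and 48.3 in contralateral kidneys. Its change was -0.19 ± 0.23 with an interval of -0.84 to 0.45, the groups overlapped, and mouse 495 went the other way from mice 485 and 512. In the remaining genes, 73 of 75, the ligated kidney was lower in all 3 mice, against 7435 of all 19598 genes.

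Probes of 1 gene did not always agree. Of 69 genes with several passing probes, 17 had probes that differed in sign, 11 of them cytosolic. Most of the cytosolic ones had changes near 0, and the wider splits were Rpl36a, Rpl21, Rpl22 (-0.02 at the brightest probe and 0.52 at the other), Rps20 (from -0.02 to 0.65) and Rps4x (from -0.70 to 0.14). Of 119 mitochondrial probes that passed the filter, 86 were called lower when every probe was tested by itself. In 6 mitochondrial genes (Mrpl17, Mrpl27, Mrpl52, Mrps9, Mrps15 and Mrps25), passing probes differed in sign. The brightest probe of Mrps15 had a change of -0.72 ± 0.17, while a second probe had 0.140, 0.230 and 0.221 in ligated kidneys against 0.113, 0.144 and 0.161 in contralateral kidneys, a change of 0.48 ± 0.15. For Mrpl27 the changes were -0.94 at the brightest probe and 0.37 at the other, and for Mrpl17 they were -0.93 and 0.21. The second probes of these 3 genes were dim, with no signal above 0.230. Those of Mrps15 and Mrpl27 matched no RefSeq gene by accession, while that of Mrpl17 matched Mrpl17. Mrpl52 changed by -0.25 at its brightest probe and by 0.73 ± 0.25 at the other. That other probe had 0.173, 0.403 and 0.299 in ligated kidneys against 0.115, 0.161 and 0.248 in contralateral kidneys. It matched no RefSeq gene by accession, nor did the probe of Mrps9 with a positive change, while the probes of Mrps25 did match.

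The mice differed in the size of the mitochondrial falls. The smallest of the 3 falls was that of mouse 512 in 67 of 75 genes, and the largest was that of mouse 485 in 64. Over all 19598 genes, the difference of mouse 512 was the highest of the 3 in 8696 and that of mouse 485 the lowest in 6872. The order of the mice depended on the scaling: with spike-in centring the mitochondrial medians of mice 495, 485 and 512 were -0.38, -0.39 and -1.0. The contralateral kidney of mouse 512 was the lowest of the contralateral kidneys in 69 mitochondrial genes, against 8665 of all 19598 genes. Against the mean of the other 2 contralateral kidneys, the median mitochondrial gene stood at -1.0 in the ligated kidney of mouse 495, -1.12 in that of mouse 485 and -1.15 in that of mouse 512, but also at -0.50 in the contralateral kidney of mouse 512. The cytosolic genes of that kidney stood at 0.13.

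Other genes of mitochondrial translation, from lists of named genes, fell too. Of 15 mitochondrial translation factors tested, 8 fell, or 53.3% against 14.7% of all genes, and 0 rose, with a median of -0.89. Gfm1, the elongation factor that moves the mitochondrial ribosome along, had 1.35, 1.77 and 1.33 in ligated kidneys, against 5.22, 6.85 and 2.48 in contralateral kidneys, a change of -1.60 ± 0.28 (limma adjusted p = 0.0318). Gatb, a subunit of the enzyme that makes the glutamine-charged mitochondrial tRNA, changed by -1.51 ± 0.27 (limma adjusted p = 0.0319). Of 17 mitochondrial aminoacyl-tRNA synthetases, which charge tRNAs, 9 (52.9%) fell and 0 rose, with a median of -0.72. Of these, Fars2 (-1.36) and Rars2 (-1.20) changed most. Of 25 genes for transcription of the mitochondrial genome, RNA handling and assembly of the mitochondrial ribosome, 13 (52.0%) fell and 0 rose, with a median of -0.79. They include Tefm, an elongation factor of mitochondrial transcription, at -1.31 and Lrpprc, which stabilises mitochondrial messenger RNAs, at -1.22 ± 0.15 (limma adjusted p = 0.0237). No member of these 3 lists was higher at an unadjusted p under 0.05.

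Mitochondrial genes outside translation fell as well. Of 20 genes of the respiratory chain and ATP synthase, 19 fell, with a median of -1.45, and the medians of mice 495, 485 and 512 were -1.76, -1.85 and -0.70. Cycs, the electron carrier cytochrome c, and Sdhb, of complex II, both changed by -1.72. Of 14 genes of the outer membrane and import machinery, 12 (85.7%) fell, with a median of -1.06. Among them were the chaperonin Hspd1 (-1.52) and the import channel subunit Timm17a (-1.45). Among 10 regulators of mitochondrial biogenesis 4 (40.0%) fell and 0 rose, with a median of -0.22, and 1 was higher at an unadjusted p under 0.05 by limma. Ppargc1a and Ppargc1b were among those that fell, at -0.77 ± 0.17 and -1.0 ± 0.18 (limma adjusted p = 0.0396 and 0.032). Nrf1, Gabpb1 and Pprc1 changed by 0.34, 0.30 and 0.59, and Gabpa and Yy1 by -0.21 and -0.23, none of them called. Of these, Nrf1 and Gabpb1 were dim, with no signal above 0.272. Ppara, the receptor that drives fatty acid oxidation, changed by -2.16 ± 0.28 and Esrra, a nuclear receptor that acts on respiratory genes, by -1.49 ± 0.31 (limma adjusted p = 0.0243 and 0.0390).

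**Figure D4:**
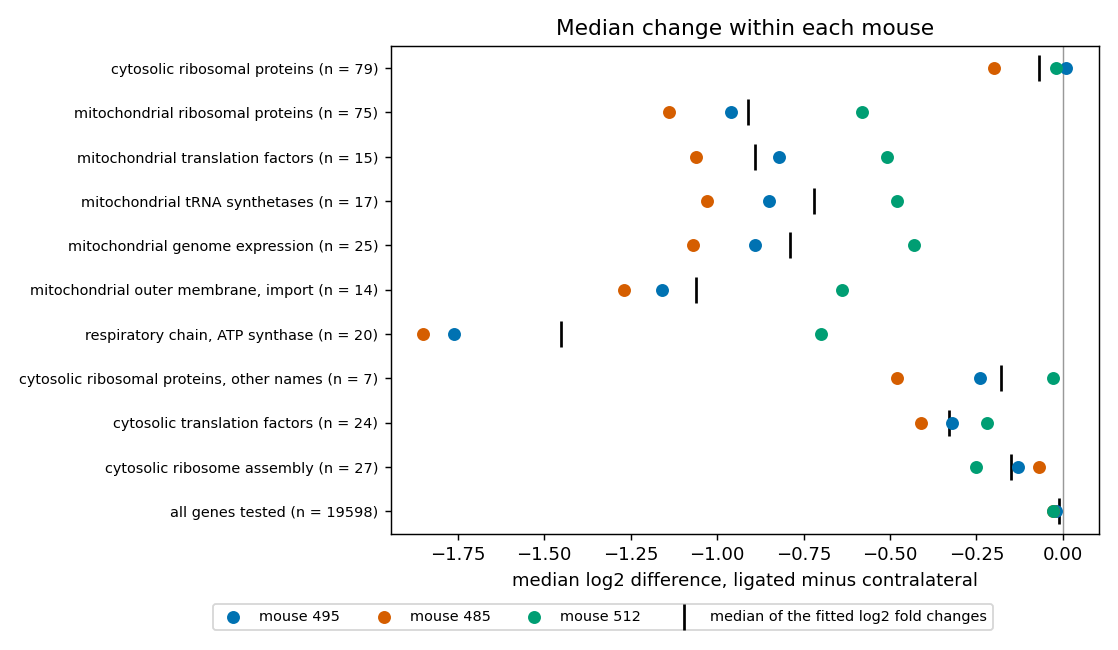
Median log2 difference, ligated minus contralateral (horizontal axis), of the 2 ribosomal protein classes, 8 lists of related genes and all genes tested. Coloured points are the 3 mice and black ticks the medians of the fitted changes. In the 5 mitochondrial lists and the mitochondrial ribosomal proteins, mouse 512 lies nearest to 0 and mouse 485 farthest from it.

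The 73 cytosolic genes without the paralogs and Rps19bp1 stayed close to the array's centre. None was called, and by limma 1 of them, Rps9, was higher and 0 were lower at an unadjusted p under 0.05. Of all 19598 genes, 4782 were higher and 5051 lower at that level. Their median was -0.06 and 61 of them lay within 0.25 of 0 on the log2 scale, against 4707 of all 19598 genes. A p that misses the threshold does not show equality, but the 95% intervals bound the changes: they held 0 in 72 of the 73 genes and lay wholly above the mitochondrial median of -0.91 in 70. Of the mitochondrial genes, 59 had a lower log2 change than the lowest of these cytosolic genes, Rpl21, whose 2 probes disagreed. The large subunit had a median of -0.09 and the small subunit one of -0.05. The ligated kidneys lay below all contralateral kidneys in 10 of the 73 genes and above them in 0, against 28.8% and 24.7% of all genes.

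Rps6, the small subunit protein that S6 kinases phosphorylate, had 24.6, 21.8 and 27.6 in ligated kidneys, against 24.1, 23.5 and 28.0 in contralateral kidneys. The groups overlapped, with a change of -0.04 ± 0.14 and a 95% interval of -0.42 to 0.35. Rpl13a, often used as a reference gene in quantitative PCR, had 48.3, 38.8 and 49.7 in ligated kidneys, against 44.5, 45.0 and 47.7 in contralateral kidneys, a change of -0.01 ± 0.15. Rpl32 and Rps18, used in the same way, changed by -0.06 ± 0.14 and -0.16 ± 0.14. Rpl5 and Rpl11, which bind Mdm2 when ribosome assembly is disturbed, had changes of -0.17 ± 0.14 and -0.22 ± 0.16. Rpl23 and Rps14 were nearest to 0, at -0.00 ± 0.14 and 0.01 ± 0.14. The limma adjusted p of all these genes lay between 0.310 and 0.991.

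At the edges of the cytosolic class, chosen after their values were seen, Rpl21, Rpl31 and Rps9 stood out. Rpl21, of the large subunit, had 1.64, 1.86 and 2.47 in ligated kidneys, against 3.36, 3.73 and 2.54 in contralateral kidneys, a change of -0.69 ± 0.27 (limma adjusted p = 0.112). That probe is named Rpl21 by the array and matched no RefSeq gene by accession. The probe that did match Rpl21 was dim, with 0.0805, 0.0759 and 0.0804 in ligated kidneys against 0.0744, 0.0644 and 0.0854 in contralateral kidneys, and changed by 0.09 ± 0.15. Rpl31 changed by 0.44 ± 0.20 (limma adjusted p = 0.154) and Rps9 by 0.41 ± 0.15 (limma adjusted p = 0.0985), both with overlapping groups. Cytosolic ribosomal protein genes have many near-identical processed copies in the genome, and what their probes may share with such copies was not examined.

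Rps27l was the single cytosolic gene called. It is a paralog of Rps27 that p53 activates in human cells. Its probe, chr9:66746823-66748513 in mm8, begins with aaagccaggctcacagaaggctgttcattt, that of Rps27 begins with ctgaaagcccctgattgaagatgagtggga, and the longest run the 2 probes share is 6 of 60 bases. Rps27l had 35.2, 32.6 and 32.9 in ligated kidneys, against 59.6, 66.3 and 53.3 in contralateral kidneys. The groups did not overlap, and the change was -0.83 ± 0.15 (limma adjusted p = 0.0332), or 1.77-fold lower. It was not called after quantile normalization, with spike-in centring, without the filter on dim probes, or without mouse 495 or mouse 485. Rps27 had 97.5, 80.4 and 118 in ligated kidneys, against 97.2, 92.0 and 97.9 in contralateral kidneys, a change of 0.03 ± 0.17 (limma adjusted p = 0.905). The difference between paralog and parent was not tested.

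The other paralogs did not pass the test. Rpl36al had 13.6, 12.2 and 13.1 in ligated kidneys, against 22.5, 24.8 and 17.0 in contralateral kidneys, with no overlap and a change of -0.71 ± 0.19 (limma adjusted p = 0.0557). The probes of its parent Rpl36a disagreed in sign. The brightest changed by -0.32 ± 0.17 (limma adjusted p = 0.209), while the other 2, of similar brightness, both changed by 0.32 (SE 0.15 and 0.16), so no direction is given for Rpl36a. Rpl3l, which replaces Rpl3 in heart and skeletal muscle, was dim, with 0.0589, 0.0980 and 0.0391 in ligated kidneys, against 0.182, 0.263 and 0.0234 in contralateral kidneys. Mouse 512 went the other way from mice 495 and 485, and the change was -0.77 ± 0.55, against 0.07 ± 0.18 for Rpl3. Rpl22l1 and Rpl22 changed by 0.12 ± 0.15 and -0.02 ± 0.14, and Rpl7l1 and Rpl7 by -0.09 ± 0.14 and -0.07 ± 0.14. A second, dimmer probe of Rpl7l1 had a change of -0.85 ± 0.15. Rps19bp1, known as a regulator of the deacetylase Sirt1, had 3.74, 3.38 and 3.60 in ligated kidneys, against 5.37, 5.59 and 4.89 in contralateral kidneys, a change of -0.56 ± 0.15 (limma adjusted p = 0.0547) without overlap.

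Further lists held genes that work with the cytosolic ribosome. Of 7 cytosolic ribosomal proteins with other names, 0 were called, also at an unadjusted p under 0.05 by limma, with a median of -0.18. Of 24 cytosolic translation factors, 3 fell, which at 12.5% is close to the 14.7% of all genes, with a median of -0.33. They are Eif5a, which helps the ribosome through difficult peptide bonds, at -0.81 ± 0.17, Eif4g1, the scaffold of cap-dependent initiation, at -0.74 ± 0.14, and the cap-binding Eif4e at -0.65 ± 0.15. Of 27 genes of cytosolic ribosome assembly, 1 fell, Nhp2, part of the particles that modify ribosomal RNA, at -0.95 ± 0.16 (limma adjusted p = 0.0311), with a list median of -0.15 and a called share of 3.70%.

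Among 12 regulators of cytosolic ribosome output, 3 fell. Mtor, the kinase that controls translation of the pyrimidine-run messenger RNAs, had 1.47, 1.64 and 1.05 in ligated kidneys, against 5.12, 6.69 and 2.88 in contralateral kidneys, a change of -1.76 ± 0.18 (limma adjusted p = 0.0221). Its partner Rptor and its activator Rheb both changed by -0.67, and Rptor was dim, with signals from 0.0536 to 0.116. Myc, a driver of ribosome production, had 2.56, 5.26 and 2.37 in ligated kidneys, against 0.263, 0.410 and 3.58 in contralateral kidneys. It was higher in the ligated kidneys of mice 495 and 485 and lower in that of mouse 512, at 2.13 ± 0.97 (limma adjusted p = 0.153). Of 11 cell cycle genes, 0 were called, also at an unadjusted p under 0.05. Their medians in mice 495, 485 and 512 were 3.71, 1.58 and -0.44, so the difference in mouse 512 went the other way. Against the contralateral kidneys of mice 495 and 485, they stood at 3.31, 1.89 and 2.35 in the ligated kidneys of mice 495, 485 and 512. In the contralateral kidney of mouse 512 they stood at 3.07.

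Markers of several cell types moved in the same comparison, in which 14.7% of all genes fell and 16.0% rose. Of 12 proximal tubule markers 9 fell, with summed signals of 201 to 317 in ligated kidneys and 412 to 1980 in contralateral kidneys. Of 7 loop and distal tubule markers 2 fell, with sums of 127 to 170 in ligated kidneys and 117 to 370 in contralateral kidneys. Of 8 collecting duct markers 7 fell, with sums of 6.55 to 10.7 in ligated kidneys and 21.7 to 54.4 in contralateral kidneys. Of 10 macrophage markers 9 rose, with sums of 253 to 294 in ligated kidneys and 20.2 to 98.6 in contralateral kidneys. Of 9 fibroblast and myofibroblast markers 8 rose, with sums of 123 to 247 in ligated kidneys and 12.5 to 65.3 in contralateral kidneys. Of the markers tested, 2 of 5 for podocytes, 3 of 6 for endothelium, 4 of 7 for T cells, 3 of 6 for B and plasma cells and 2 of 4 for neutrophils rose, and of the urothelial markers Upk1a and Krt5 were tested and 0 were called, also at an unadjusted p under 0.05. The part of these shifts in the falls of the mitochondrial ribosomal protein genes was not tested.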

How the data were processed

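Both kidneys of 3 mice were measured on 6 Cy3 arrays (Agilent design 014868). The authors deposited scanner tables whose processed signal is a linear intensity, background-subtracted within each array and not scaled between arrays, per the file headers; spot means and background medians are raw intensities, and the flags are scores of 0 or 1, per the file headers. Their deposited value table is a linear ratio: the processed signal over the array's median. The headers name Feature Extraction 10.5.1.1 and the mm8 build, and the submitters' processing notes name version 9.1.

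Control spots and outlier-flagged spots (43 to 79 per array) were left out. Log2 signals were centred on the array's 75th percentile, and spots of a probe were averaged. A probe was used if either group had it above background on each of its 3 arrays, and a gene was read from its brightest probe. Of the 258 member probes, 219 carried a current RefSeq symbol and 37 had no match by accession and kept the file's name, as did Rps3a, whose current symbol is another. No member spot was saturated (0 spots).

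The two-sided test was limma's (version 3.58.1, R 4.3.3; lmFit, then eBayes), checked on simulated data, with the mouse as a block. The labels give both kidneys of an animal its number, and deviations from the group means correlated within mice 495, 485 and 512 (r = 0.194, 0.481 and 0.271). P-values measure the spread of the ligated minus contralateral difference between these 3 animals, moderated by limma over all genes. Changes are given ± SE.

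The members, lists, named-gene rule and settings were chosen with earlier results of these data known. The rule named, in each class, up to 6 called genes with the largest falls and rises, the 2 uncalled genes nearest to 0, all paralogs with their parents, Rps19bp1, 9 genes in any case (Rps6, Rpl13a, Rpl32, Rps18, Rpl3, Rpl5, Rpl11, Mrpl12 and Mrps12), and from each list the 2 called genes that changed most or, with none called, that with the smallest p; other names were chosen after their values were seen. A gene that the rule names is not reported here. Alternatives were other scalings, background correction, the deposited value table, filters, probe rules, no mouse or the slide as a block, an intensity trend and leaving out a mouse. Added after seeing the data was a fit without the contralateral kidney of mouse 512.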

Additional observations from a re-analysis of the deposited data

How the results depend on the processing

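The counts of calls depended on the scaling, the filter and the animals, and the difference between the ribosomes much less. The 57 mitochondrial genes that fell became 34 with quantile normalization, 0 with spike-in centring and 6 without a filter on dim probes, where 28467 genes were tested. In those fits 14.7%, 3.39% and 3.17% of all genes fell. Tested by probe, 86 mitochondrial probes, or 72.3%, fell, against 14.9% of all probes. Leaving out 1 mouse gave 0 to 67 mitochondrial and 0 to 7 cytosolic genes lower: without mouse 495 or without mouse 485, limma called 0 of all 19598 genes (4949 and 4952 at an unadjusted p under 0.05), with 30 and 37 mitochondrial genes lower at that unadjusted level and medians of -0.88 and -0.81. The 1 cytosolic fall became 7 with median centring or the deposited value table, where 30.3% of all genes fell. It became 0 with quantile normalization, spike-in centring or no filter. There were 2 with normexp correction (14.2% of all genes) or the mean of a gene's probes (13.9%). There were 3 with probes above background on all 6 arrays (19.3%) or with every probe by itself (14.9% of all probes). With the slide as the block (20.3%) or an intensity trend (18.4%) there were also 3. Without the replicate block, 65 mitochondrial and 3 cytosolic genes fell, against 14.2% of all genes, and these 65 held all 57. Rises of cytosolic genes, 0 as reported, were 1 with quantile normalization (Rps9), 1 by probe (Rps15a), and 4 without the contralateral kidney of mouse 512 (Rpl12, Rpl31, Rps9 and Rps15a), where 7 fell. The cytosolic median moved to -0.37, 0.47 and 0.24, and the mitochondrial one to -1.21, -0.58 and -0.60, with median centring (also the deposited table), quantile normalization and spike-in centring. The cytosolic minus mitochondrial difference of 0.84 was 1.05 with quantile normalization, 1.09 without the contralateral kidney of mouse 512 and 0.78 to 0.95 with 1 mouse left out. All 57 genes were shared with the calls under median centring, the slide block, the intensity trend and without mouse 512, and 56 with those after normexp correction. Rpl36al and Rps19bp1 were called under median centring, the stricter filter, the intensity trend and both other blocks. The causes of these changes were not tested. Dim probes limit the reading of Rpl3l and of second probes.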
